A study of Drosophila melanogaster with 8 samples.

Results

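The Uhg genes of Drosophila melanogaster are noncoding genes that carry small nucleolar RNAs (snoRNAs) in their introns. The members were the rows of the deposited count table that bear the symbols Uhg1, Uhg2, Uhg3, Uhg4, Uhg5, Uhg7 and Uhg8, all 7 of which were present among 22887 features. Their RNA was measured by total RNA sequencing of dissected testes from flies aged 5 days, in 4 groups of 2 libraries, namely a Tailor/Dis3L2 double mutant, a Tailor mutant, a Dis3L2 mutant and the strain w1118. The sources used here give neither the alleles nor the parent strains nor the number of animals behind a library, and each group has 2 libraries from separate dissections, per the labels' protocols. Tailor adds uridines to RNA 3′ ends and Dis3L2 is an exonuclease that degrades uridylated RNA.

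A snoRNA host gene is transcribed and spliced like a messenger RNA, and the excised intron is debranched and trimmed back to the snoRNA inside it. Box C/D snoRNAs guide the methylation of ribose in ribosomal RNA, and box H/ACA snoRNAs guide the conversion of uridine to pseudouridine. In many hosts the exons encode a protein, often a ribosomal protein, whereas the spliced exons of a Uhg gene have no known protein product. In mammals the spliced RNA of several such noncoding hosts is short-lived and is a target of nonsense-mediated decay.

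The RNA of the Uhg genes was scarce in testis and few of its differences passed a test. Of 42 tests (6 genes in 7 comparisons), 2 passed, where 2% to 14.7% of all features passed in a single comparison. Uhg1, the gene with the most snoRNAs, was 0.472-fold in double mutant testes relative to Tailor mutant testes, and Uhg4, which carries the family's only H/ACA snoRNAs, was 3.72-fold in Tailor mutant relative to Dis3L2 mutant testes. The Uhg1 call was lost when either double mutant library was left out, and the Uhg4 call when either Dis3L2 mutant library was. No Uhg gene passed the test in any mutant against w1118, where 2% to 11.6% of all features did. All Uhg genes together gave 18.3 ± 2.77 CPM (counts scaled to library size) in double mutant, 33.3 ± 1.39 CPM in Tailor mutant, 20.4 ± 1.64 CPM in Dis3L2 mutant and 27.8 ± 3.51 CPM in w1118 testes (SD, n = 2 each).

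The deposited libraries held 9781275 to 30059737 counts, and the smallest was double mutant replicate 2. Of these counts 157 to 853 per library fell on Uhg genes. In double mutant and Tailor mutant testes the Tailor row gave 21.9 and 19.7 CPM, against 96.2 CPM in Dis3L2 mutant and 84.8 CPM in w1118 testes. The Dis3l2 row, CG16940 in the table, gave 30.7 CPM in double mutant, 91.7 CPM in Tailor mutant and 10.3 CPM in Dis3L2 mutant testes, against 115.8 CPM in w1118 testes. All 9 germline markers were detected in each library, with a summed level of 2565 to 3834 CPM. All 5 markers of the accessory gland, which adjoins the testis, were also detected, at 7260 to 9543 CPM in double mutant, 6400 to 25396 CPM in Tailor mutant and 1982 to 2684 CPM in Dis3L2 mutant testes, against 7816 to 8127 CPM in w1118. In bulk tissue, fewer cells of a type and less RNA per cell cannot be told apart.

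The 7 genes share a plan in which short exons alternate with short introns (positions are 1-based, BDGP6, whose coordinates are those of the submitters' build dm6). Uhg1 (FBgn0045800, chromosome 2R, 17699097 to 17703344, plus strand) has 17 exons and carries 16 box C/D snoRNAs. These include 3 copies of U29, 3 of U31, 2 of U27 and 2 of snR38, all modification guides. Uhg2 (FBgn0063449, 2L, 9893805 to 9895003, minus strand) has 5 exons and 4 C/D snoRNAs. Both of its U14 copies belong to the family needed for 18S ribosomal RNA processing in yeast. Uhg3 (FBgn0259936, 2L, 20647533 to 20648848, plus strand) carries 3 copies of a single guide, Me28S-C2645, and is annotated with 3 transcripts, of which some keep an intron that others remove.

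Uhg4 (FBgn0083124, 2R, 9095273 to 9097312, plus strand) has 8 exons and 7 snoRNAs, of which Psi28S-2949 and Or-aca5 are the family's 2 box H/ACA members. Its last intron holds Or-CD2, a C/D snoRNA with no assigned target ("Or" stands for orphan). Uhg5 (FBgn0083123, 2R, 14621601 to 14624498, plus strand) has 12 exons and 11 C/D snoRNAs, among them 3 copies of Me28S-G2703. Uhg7 (FBgn0083121, 3L, 1666288 to 1667307, minus strand) carries 3 copies of Me28S-A2634 in introns and Or-CD15 in an exon. Uhg8 (FBgn0083120, 3L, 20453293 to 20454731, plus strand) carries 3 copies of Me18S-U1356.

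In all, 48 of the 274 annotated snoRNA and scaRNA genes lie inside Uhg genes on the same strand, 46 of class C/D and 2 of class H/ACA by name. Of the 48, 47 lie in an intron, and no intron holds more than 1. The introns that carry a C/D snoRNA measure 171 to 408 nt (median 184), and the 55 merged exons 40 to 481 nt (median 61). The exons of Uhg1 make up 25.1% of its span.

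**Figure D1:**
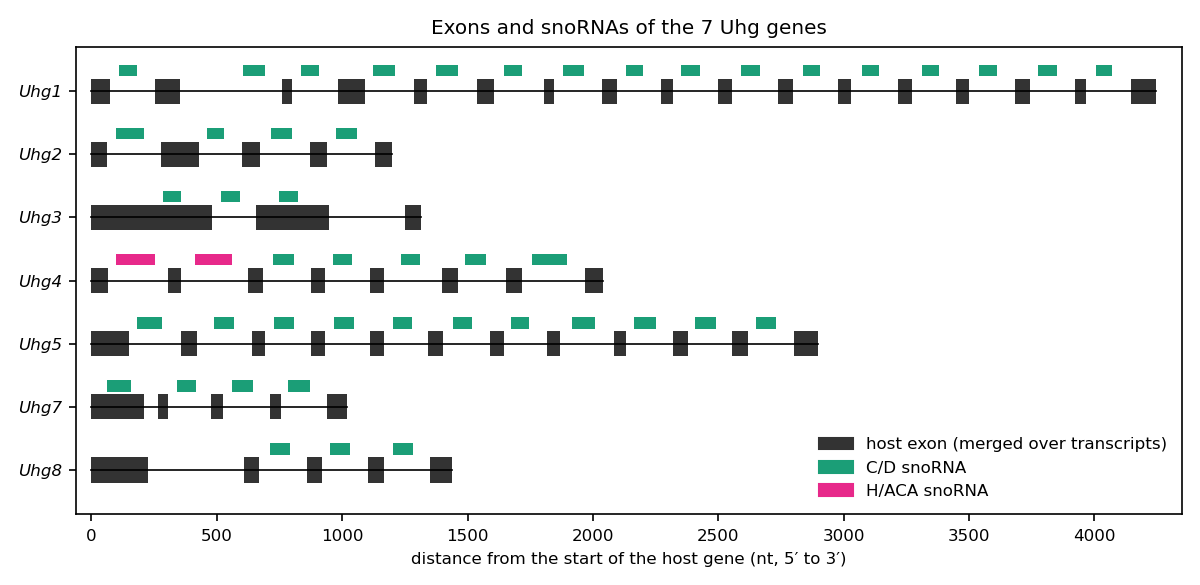
Map of the 7 Uhg genes drawn from the annotation, with distance from the start of each gene in nt on the horizontal axis. Dark boxes are exons merged over transcripts, green bars C/D snoRNAs and magenta bars H/ACA snoRNAs; 47 of 48 snoRNAs lie in an intron of at least 1 transcript, and both H/ACA snoRNAs are in Uhg4.

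The C/D snoRNAs sit at a nearly fixed distance from the exon that follows. From the snoRNA's last base to the next exon there are 62 to 88 nt, with a median of 71 nt, and 42 of the 45 C/D snoRNAs in Uhg introns (93.3%) have 60 to 80 nt. Both H/ACA snoRNAs of Uhg4 are 51 and 65 nt from the next exon. Among 51 C/D snoRNAs in introns of 26 protein-coding genes the median was 72 nt, and 38 (74.5%) had 60 to 80 nt. On the other side, the distance from the preceding exon to a Uhg C/D snoRNA ran from 27 to 252 nt with a median of 37 nt. These are properties of the annotation, given as a description with no test.

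**Figure D2:**
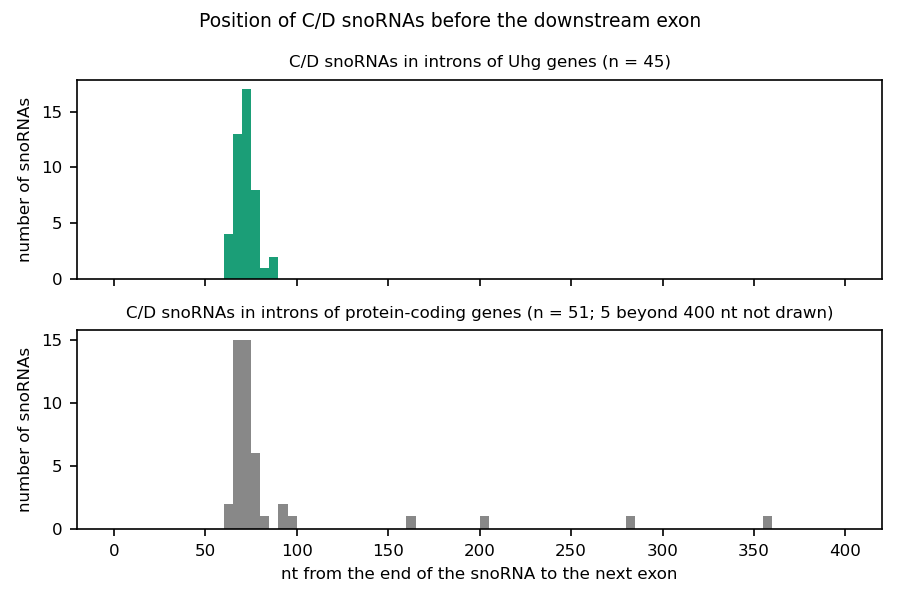
Number of C/D snoRNAs by the distance in nt from the snoRNA's end to the next exon, in bins of 5 nt. The 45 in Uhg introns lie between 62 and 88 nt; most of the 51 in protein-coding genes lie in the same range, with a tail to longer distances.

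Some Uhg exons overlap other genes, and the strand setting of the authors' counting is not given in the sources used here. The 421 exonic bases of Uhg7 all lie within exons of RpL23A, a large-subunit ribosomal protein gene on the same strand, so reads of the pair cannot be told apart by position. Of the exonic bases of Uhg4, 132 (26.9%) lie opposite exons of Ctu1, which encodes a tRNA thiolation enzyme and stands in the table as CG8078. Uhg8 overlaps atk, a gene on the other strand, by 42 bases (8.47%), and Uhg1 overlaps CG6424 and CG46315 by 10 bases. Uhg2, Uhg3 and Uhg5 overlap no exon of another gene apart from their snoRNAs.

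Per kilobase of merged exon, Uhg4 and Uhg1 had the highest mean levels and Uhg7 the lowest in every group, although in Dis3L2 mutant testes Uhg4 overlapped Uhg3 (4.25 ± 0.87 CPM per kb) and Uhg3 passed it at 5.34 when the longest transcript gave the length. Uhg4 gave 7.53 ± 0.17 CPM per kb in double mutant, 16.1 ± 7.06 in Tailor mutant and 4.30 ± 0.33 in Dis3L2 mutant testes, against 9.86 ± 0.96 in w1118 testes. Uhg1 gave 5.76 ± 1.11 CPM per kb in double mutant, 12.3 ± 0.57 in Tailor mutant and 7.72 ± 0.75 in Dis3L2 mutant testes, against 8.62 ± 1.12 in w1118. Uhg4 ranked first in double mutant, Tailor mutant and w1118 testes and Uhg1 in Dis3L2 mutant testes, and the libraries of the pair overlapped in the Tailor mutant and w1118 groups.

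The middle of the order was less distinct. In w1118 testes Uhg5, Uhg3 and Uhg2 followed with 6.09 ± 0.38, 5.53 ± 1.01 and 5.50 ± 0.08 CPM per kb, and neighbours in that order overlapped. Uhg8 came next with 3.33 ± 1.12 CPM per kb and Uhg7 last with 0.76 ± 0.27. In Tailor mutant and Dis3L2 mutant testes Uhg3, Uhg5, Uhg2 and Uhg8 held the third to sixth places in that order, and each pair of neighbours overlapped. Uhg1 took the largest share of Uhg counts in every library, from 32.5% to 40.7%, and its merged exons, 1065 bases, are the longest of the 7.

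**Figure D3:**
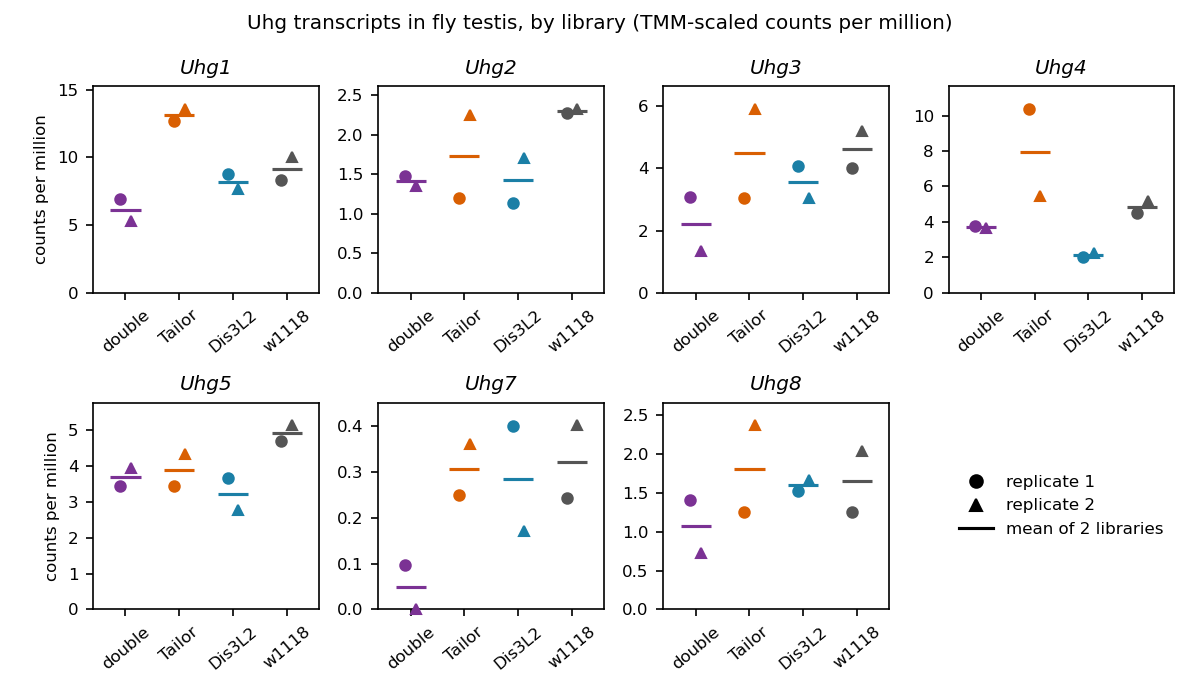
CPM of each Uhg gene in each of the 8 libraries, with groups on the horizontal axis and a separate scale per gene that starts at 0. Circles are replicate 1, triangles replicate 2 and lines the mean of 2 libraries; the Uhg4 values of the 4 groups do not overlap, while most other genes overlap between some groups.

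Uhg1 gave 6.97 and 5.30 CPM in double mutant testes, 12.7 and 13.6 in Tailor mutant testes, 8.79 and 7.66 in Dis3L2 mutant testes, and 8.34 and 10.03 in w1118 testes. The Tailor mutant libraries were the highest and the double mutant libraries the lowest, with no overlap of either with another group. Separation of this kind was common: the 2 libraries of each group did not overlap for 69.9% of all features in double mutant against w1118, 44.2% in Tailor mutant against w1118, 61.8% in Dis3L2 mutant against w1118, 56.5% in double mutant against Tailor mutant, 59.7% in double mutant against Dis3L2 mutant and 50.9% in Tailor mutant against Dis3L2 mutant testes. These levels rest on 51 to 338 counts per library.

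Uhg4 gave 3.76 and 3.64 CPM in double mutant testes, 10.4 and 5.46 in Tailor mutant testes, 2.00 and 2.23 in Dis3L2 mutant testes, and 4.51 and 5.17 in w1118 testes. It was the only one of the 7 genes whose 4 groups did not overlap anywhere, in the order Tailor mutant, w1118, double mutant, Dis3L2 mutant. How many of all features separate in this way was not counted, and single pairs of groups separate for 44.2% to 69.9% of them. The 2 Tailor mutant libraries were far apart, and replicate 1, the higher one, is also the library with 25396 CPM of accessory gland markers against 6400 CPM in replicate 2; the part of these cells in the Uhg4 level was not tested. Uhg4 spanned a 5.19-fold range over the 8 libraries and rested on 30 to 207 counts.

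Uhg5, with its 11 guides, was the steadiest, with a 1.85-fold range. It gave 3.43 and 3.95 CPM in double mutant, 3.46 and 4.34 in Tailor mutant and 3.66 and 2.78 in Dis3L2 mutant testes, against 4.70 and 5.13 in w1118 testes. All 6 mutant libraries lay below both w1118 libraries. Uhg2, the host of U14, gave 1.48 and 1.35 CPM in double mutant, 1.20 and 2.25 in Tailor mutant and 1.13 and 1.71 in Dis3L2 mutant testes, against 2.28 and 2.33 in w1118 testes. Here too each mutant library lay below both w1118 libraries, by little in Tailor mutant replicate 2. The share of all features with this pattern of Uhg5 and Uhg2 was not counted.

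Uhg3, with its copies of Me28S-C2645, gave 3.08 and 1.35 CPM in double mutant, 3.06 and 5.91 in Tailor mutant and 4.06 and 3.04 in Dis3L2 mutant testes, against 4.02 and 5.21 in w1118 testes. Its Tailor mutant libraries spanned those of w1118. Uhg8, with its copies of Me18S-U1356, gave 1.41 and 0.727 CPM in double mutant, 1.25 and 2.37 in Tailor mutant and 1.53 and 1.67 in Dis3L2 mutant testes, against 1.26 and 2.05 in w1118 testes. For Uhg8 every mutant group overlapped w1118.

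Uhg7 was near the limit of detection. It had 3 and 0 counts in double mutant, 5 and 9 in Tailor mutant and 6 and 4 in Dis3L2 mutant testes, against 5 and 10 counts in w1118 testes. The library with 0 counts allows a level of up to 0.312 CPM (3 counts), a limit for counting error only. Uhg7 did not pass the filter on low counts and was not tested, so 6 of the 7 genes entered the fit.

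Differences between groups were tested for 14246 features with edgeR's quasi-likelihood test and Benjamini-Hochberg adjustment, with calls made where the adjusted p was 0.05 or lower. Fold changes are log2 values of the first group over the second, with standard errors (SE). In double mutant against w1118 testes 0 of 6 Uhg genes were called, where 11.6% of all features were called, and DESeq2 called 0. In the same edgeR test 1 Uhg gene had an unadjusted p under 0.05, beside 4325 of all 14246 features. All 6 were lower in the double mutant (median log2 fold change -0.56, against -0.06 for all features). The largest estimate was that of Uhg3 (-0.99 ± 0.46, adjusted p = 0.191) and the most precise that of Uhg1 (-0.57 ± 0.20, adjusted p = 0.112). The libraries of 5 genes, all but Uhg8, did not overlap between the groups, where 69.9% of all features did not.

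In Tailor mutant against w1118 testes 0 of 6 were called, beside 2% of all features, and DESeq2 called 0. An unadjusted p under 0.05 was found for 1 Uhg gene, beside 2099 of all 14246 features. The genes split evenly, 3 higher and 3 lower, with a median log2 fold change of 0.05, against 0.02 for all features. Uhg4 (0.70 ± 0.31, adjusted p = 0.357) and Uhg1 (0.52 ± 0.20, adjusted p = 0.279) were the higher estimates. With 1 library left out the Uhg4 estimate ran from 0.18 to 1.10. The higher end was without Tailor mutant replicate 2, whose Uhg4 level was the lower of the pair.

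In Dis3L2 mutant against w1118 testes 0 of 6 were called, beside 9.22% of all features, and DESeq2 called 0. An unadjusted p under 0.05 was found for 2 Uhg genes, beside 3501 of all 14246 features. All 6 estimates were below 0, with a median log2 fold change of -0.50, against 0.00 for all features. Uhg4 came closest to the threshold (-1.19 ± 0.33, adjusted p = 0.0674), with no overlap of its libraries. By edgeR it was called with no filter on low counts (adjusted p = 0.0447) and in a fit of the 4 libraries of these groups alone (0.0159). With 1 library left out its estimate ran from -1.28 to -1.10. Uhg1 (-0.16 ± 0.20) and Uhg8 (-0.05 ± 0.47) were the estimates nearest to 0, with 95% intervals of -0.63 to 0.30 and -1.14 to 1.04. The 3 comparisons with w1118 share its 2 libraries, so their directions are not independent.

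In double mutant against Tailor mutant testes 1 of 6 was called, beside 14.7% of all features. Uhg1 fell (-1.08 ± 0.20, adjusted p = 0.0174), and 6.54% of all features were called lower. All 6 estimates were below 0 (median log2 fold change -0.82, against -0.09 for all features). Uhg4 had nearly the same estimate (-1.09 ± 0.32) and missed the threshold at an adjusted p of 0.0615 in the same edgeR test. With 1 library left out the Uhg4 estimate ran from -1.46, without Tailor mutant replicate 2, to -0.55. The Uhg1 call was lost without double mutant replicate 1 (-1.31, adjusted p = 0.0522) or replicate 2 (-0.91, adjusted p = 0.108), which leave 1 library in that group, and in a fit of the 4 libraries of these groups alone (adjusted p = 0.0930). Sums of markers of some other cells moved with Uhg1, and others did not. The cyst and hub sum was higher in the double mutant, at 111.3 to 122.0 CPM against 96.1 to 102.6 CPM in Tailor mutant testes. In that list eya, zfh1 and upd1 separated the groups, while tj and Fas3 overlapped. Accessory gland sums (7260 to 9543 against 6400 to 25396 CPM) and blood cell sums (149.7 to 212.8 against 110.9 to 156.5 CPM) overlapped. All 4 fat body markers were detected. They summed to 70.4 to 87.5 CPM in double mutant and 164.4 to 210.0 CPM in Tailor mutant testes. Among them only apolpp separated the groups, at 72.5 and 51.1 CPM in double mutant and 146.8 and 202.2 CPM in Tailor mutant testes. Lsp2, Yp1 and Yp2 overlapped. All 4 markers of the ejaculatory duct and bulb were detected too. They summed to 835 to 1023 CPM in double mutant and 1588 to 4533 CPM in Tailor mutant testes. Dup99B made up most of that sum, at 985 and 797 CPM in double mutant and 4500 and 1083 CPM in Tailor mutant testes. EbpII and EbpIII overlapped, and Ebp separated the groups by little. The 4 muscle sheath markers summed to 363 to 545 CPM in double mutant and 579.8 to 657 CPM in Tailor mutant testes. Of these only Mlc2 separated the groups, at 83.5 and 95.3 CPM in double mutant and 154.7 and 182.4 CPM in Tailor mutant testes. Ribosomal RNA took 4.65% to 10.3% of counts in double mutant and 16.6% to 17.6% in Tailor mutant libraries. The part of other cells or of ribosomal RNA in the Uhg1 difference was not tested.

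In double mutant against Dis3L2 mutant testes 0 of 6 were called, beside 9.05% of all features, and DESeq2 called 0. An unadjusted p under 0.05 was found for 1 Uhg gene, beside 3841 of all 14246 features. Uhg4 had the largest estimate (0.80 ± 0.33, adjusted p = 0.176 by edgeR's quasi-likelihood test). With 1 library left out it ran from 0.77 to 0.86. Uhg2 was at -0.01 ± 0.40, with a 95% interval of -0.96 to 0.93, and its sign turned under several settings.

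In Tailor mutant against Dis3L2 mutant testes 1 of 6 was called, beside 13% of all features. Uhg4 was higher in the Tailor mutant, by 1.90 ± 0.33 (adjusted p = 0.0126), a 3.72-fold difference with a 95% interval of 2.18 to 6.37, and 6.93% of all features were called higher. All 6 estimates were above 0, with a median log2 fold change of 0.31, against 0.01 for all features. Uhg1 was next (0.68 ± 0.20, adjusted p = 0.0655). The Uhg4 call was lost without Dis3L2 mutant replicate 1 (1.84, adjusted p = 0.0935) or replicate 2 (1.94, adjusted p = 0.0773) and in a fit of the 4 libraries of these groups alone (1.90, adjusted p = 0.0753). Beside it, the accessory gland markers summed to 6400 to 25396 CPM in Tailor mutant and 1982 to 2684 CPM in Dis3L2 mutant testes. Duct and bulb markers summed to 1588 to 4533 CPM in Tailor mutant and 491 to 793 CPM in Dis3L2 mutant testes. Dup99B made up most of that sum, at 4500 and 1083 CPM in Tailor mutant and 393 and 525 CPM in Dis3L2 mutant testes. EbpIII was lower in Tailor mutant testes, at 31.9 and 43.4 CPM against 89.2 and 122.5 CPM in Dis3L2 mutant testes. EbpII and Ebp overlapped between the groups. Fat body markers summed to 164.4 to 210.0 CPM in Tailor mutant and 74.2 to 75.0 CPM in Dis3L2 mutant testes. Among them only apolpp separated the groups, at 146.8 and 202.2 CPM in Tailor mutant and 58.20 and 65.05 CPM in Dis3L2 mutant testes. Muscle sheath markers summed to 579.8 to 657 CPM in Tailor mutant and 311 to 318 CPM in Dis3L2 mutant testes, and the 4 blood cell markers to 111 to 156 CPM in Tailor mutant and 272 to 273 CPM in Dis3L2 mutant testes. CG8078 (Ctu1), opposite Uhg4, was at 7.53 CPM in Tailor mutant and 5.84 CPM in Dis3L2 mutant testes (0.36 ± 0.23, adjusted p = 0.349); the part of any of these in the Uhg4 difference was not tested.

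**Figure D4:**
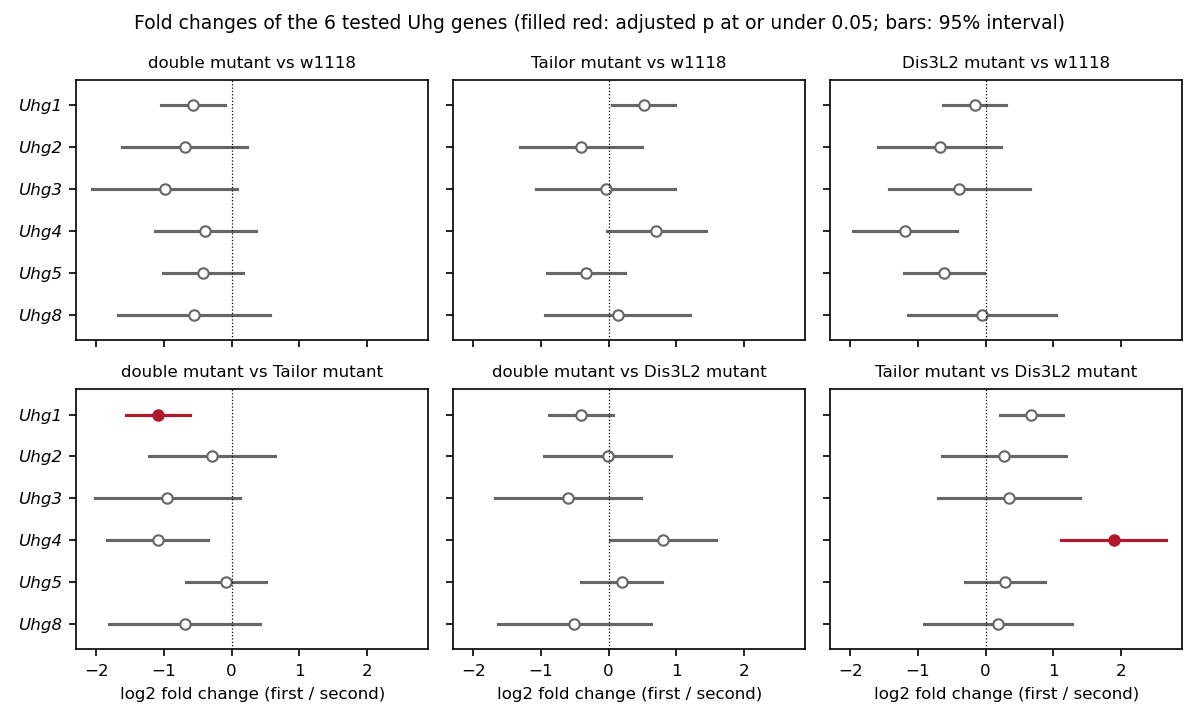
Log2 fold changes of the 6 tested Uhg genes in 6 comparisons, first group over second, with 95% intervals from the edgeR fit. Filled red points passed an adjusted p of 0.05, namely Uhg1 in double mutant against Tailor mutant (-1.08) and Uhg4 in Tailor mutant against Dis3L2 mutant (1.90).

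The interaction compares the double mutant with both single mutants' log2 changes added. None of the 6 Uhg genes was called, beside 4.08% of all features, and DESeq2 called 0. An unadjusted p under 0.05 was found for 1 Uhg gene, beside 3173 of all 14246 features. Uhg1 had the largest departure, -0.92 ± 0.28 (adjusted p = 0.118), with its highest level in Tailor mutant and its lowest in double mutant testes. For Uhg4 the departure was 0.10 ± 0.45, with a 95% interval of -0.96 to 1.16.

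The snoRNAs inside the Uhg genes were counted mainly for a single host. Of 47 with a row in the table, 5 passed the filter on low counts. Or-aca5 (148 nt) and Or-CD2 (140 nt), both of Uhg4, held 94.8% of all their counts. The other 45 had a median of 13 counts over the 8 libraries together and at most 198, and 30 had fewer than 20. Both Me28S-C2645a and Me28S-C2645c of Uhg3 had no count in any library; the annotation places them within an exon of a Uhg3 transcript. Only 3 of the 47 are longer than 120 nt, and no shorter one exceeded 198 counts.

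The snoRNAs of Uhg1, Uhg2, Uhg3, Uhg5 and Uhg8 had fewer counts than their host, and those of Uhg7 had more. Over all libraries the 16 snoRNAs of Uhg1 had 322 counts beside 1593 for Uhg1, those of Uhg5 had 354 beside 667, those of Uhg2 had 105 beside 301, those of Uhg8 had 31 beside 274, and those of Uhg3 had 25 beside 662. The 3 snoRNAs of Uhg7 with a row had 93 counts beside 42 for Uhg7. The largest single contributions were Me28S-A3407a in Uhg1 (147 counts), Me18S-A1576 in Uhg2 (52), Me28S-C2645b in Uhg3 (25), Me28S-G2703a in Uhg5 (198), Me28S-A2634a in Uhg7 (41) and Me18S-U1356b in Uhg8 (21). How the library preparation and the authors' counting retain RNAs of this length is not given in the sources used here, and several are copies of each other whose reads may be shared, so these counts are not levels of the mature snoRNAs.

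Or-aca5 had 26.9 and 10.9 CPM in double mutant testes, 48.2 and 76.5 in Tailor mutant testes, 84.8 and 48.7 in Dis3L2 mutant testes, and 90.6 and 57.9 in w1118 testes. In single comparisons of the double mutant, 56.5% to 69.9% of all features did not overlap. Or-aca5 lay lower in both double mutant libraries than in every other library, a pattern not counted over all features. It fell in double mutant against w1118 testes (-1.94 ± 0.48, adjusted p = 0.0430 by edgeR's quasi-likelihood test), the only call of a hosted snoRNA in the fit of all 8 libraries. The call was lost with a 2-fold minimum and without either w1118 library (-1.56 and -2.25), either double mutant library (-2.77 and -1.45) or either Dis3L2 mutant library, with adjusted p of 0.0586 to 0.224 without a library. Other settings added calls of Or-aca5: DESeq2 called it lower in the double mutant against Tailor mutant (adjusted p = 0.000582) and against Dis3L2 mutant testes (0.000365), as did the fit with no filter on low counts (0.0180 and 0.0170). Beside its call, the 4 fat body markers summed to 70.4 to 87.5 CPM in double mutant and 170.2 to 213.8 CPM in w1118 testes. That sum followed apolpp, at 72.5 and 51.1 CPM in double mutant and 204.1 and 163.7 CPM in w1118 testes. Lsp2 was higher in the double mutant, at 9.79 and 7.58 CPM against 1.60 and 1.44 CPM in w1118 testes. Yp1 and Yp2 overlapped between the groups. Duct and bulb markers were also lower in sum, at 835 to 1023 against 1567 to 1684 CPM. Sums were higher in the double mutant for germline (3298 to 3636 against 2823 to 2934 CPM) and cyst and hub markers (111.3 to 122.0 against 99.3 to 100.4 CPM). The blood cell sum was higher too (149.7 to 212.8 against 130.1 to 133.8 CPM), though single markers in these lists overlapped. Accessory gland and muscle sheath sums overlapped. The part of other cells in the Or-aca5 difference was not tested.

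Or-CD2 had 27.2 and 10.2 CPM in double mutant testes, 33.1 and 130.8 in Tailor mutant testes, 104.7 and 69.6 in Dis3L2 mutant testes, and 92.5 and 54.6 in w1118 testes. Its double mutant libraries were also the lowest, a pattern likewise not counted over all features, and its Tailor mutant libraries were the furthest apart. The estimate in double mutant against w1118 testes was -1.94 ± 0.69 and did not pass (adjusted p = 0.112). By edgeR it passed with no filter (adjusted p = 0.0482) and in a fit of the 4 libraries of these groups alone (0.0370). With 1 library left out the estimate ran from -2.85 to -1.42. With no filter Or-CD2 was also called lower in double mutant against Tailor mutant (0.0318) and Dis3L2 mutant testes (0.0338). All 5 tested hosted snoRNAs were lower in the double mutant than in w1118 (median log2 fold change -1.94).

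Other snoRNAs were low in the double mutant too. Of 136 tested snoRNA and scaRNA genes outside the Uhg genes, 44 fell in double mutant against w1118 testes and 0 rose, where 4.91% of all features fell, with a median log2 fold change of -1.71. All snoRNAs together took 0.0661% to 0.111% of counts in double mutant libraries and 0.162% to 0.336% in the other 6. In double mutant against Tailor mutant testes 37 fell, beside 6.54% of all features, and in double mutant against Dis3L2 mutant testes 24, beside 4.27%. Without double mutant replicate 2, the smallest library, the calls in each of these comparisons were lost, in a fit that leaves 1 library in that group. By setting these counts ran from 0 to 83 against w1118, 0 to 73 against Tailor mutant and 0 to 65 against Dis3L2 mutant testes.

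Uhg4 and its snoRNAs were not ordered alike over the groups. For each Uhg4 count there were 5.08 ± 2.94 Or-aca5 counts in double mutant, 9.32 ± 6.61 in Tailor mutant and 32.1 ± 14.5 in Dis3L2 mutant testes, against 15.6 ± 6.29 in w1118 testes. The same ratio for Or-CD2 was 5.02 ± 3.15 in double mutant, 13.6 ± 14.7 in Tailor mutant and 41.8 ± 14.9 in Dis3L2 mutant testes, against 15.5 ± 7.04 in w1118 testes. Dis3L2 mutant testes, with the least Uhg4, had the most snoRNA counts per Uhg4 count, and both of its libraries lay above both of each other group's for both snoRNAs. The order is given as a description of 2 libraries per group, with no test of the ratio.

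**Figure D5:**
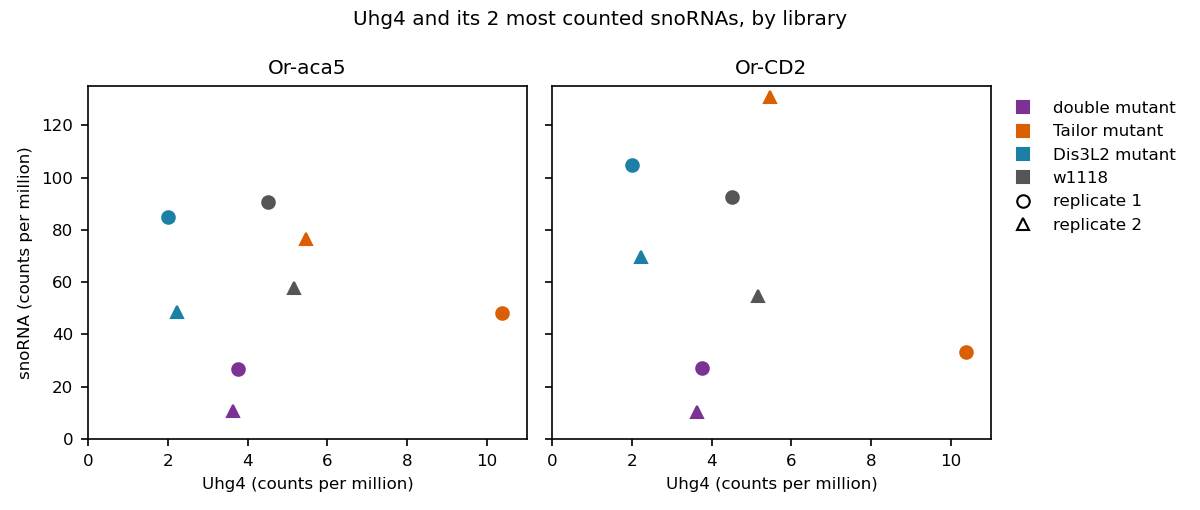
CPM of Or-aca5 (left) and Or-CD2 (right) against CPM of their host Uhg4, 1 point per library. The double mutant libraries have the lowest snoRNA levels at a middle Uhg4 level, and the Dis3L2 mutant libraries the lowest Uhg4 level at snoRNA levels within the range of the other single mutant and w1118.

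The other snoRNA hosts give a comparison of the same kind. Of 4 noncoding hosts outside the family, CR42491 and CR33222 passed the filter. In the edgeR fit of all 8 libraries neither was called in any comparison. Of their 14 unadjusted p, 2 were under 0.05, where 2099 to 4726 of all 14246 features were, by comparison. CR42491 gave 3.86 CPM in double mutant and 8.24 CPM in Tailor mutant testes (-1.09 ± 0.32, adjusted p = 0.0610), an estimate close to those of Uhg1 and Uhg4. It was called there by DESeq2 (adjusted p = 0.0386) and by edgeR with no filter (adjusted p = 0.0437). The estimate was -1.49 without Tailor mutant replicate 1 and -0.50 without Tailor mutant replicate 2. All 88 protein-coding hosts were tested. In double mutant against Tailor mutant testes 26 of them fell, beside 6.54% of all features, and 2 rose (median log2 fold change -0.48). In double mutant against w1118 testes 22 fell, beside 4.91%, and 1 rose (-0.43). Leaving out a single library could remove every call in both comparisons. The counts that fell ran by setting from 0 to 45 and from 0 to 41, with 0 under a 2-fold minimum. In Dis3L2 mutant against w1118 testes 3 fell, beside 4.53%, and 0 rose (-0.31; 0 to 18 by setting), and in Tailor mutant against Dis3L2 mutant testes 8 were higher, beside 6.93%, and 1 lower (0.25; 0 to 33 higher by setting).

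RpL36A, a large-subunit ribosomal protein gene, averaged 104.7 CPM in double mutant and 254.7 CPM in Tailor mutant testes (-1.28 ± 0.20, adjusted p = 0.0116), and RpL30 averaged 84.4 CPM in double mutant and 189.2 CPM in Tailor mutant testes (-1.16 ± 0.19, adjusted p = 0.0125). Usp10, which encodes a deubiquitinase, averaged 107.3 CPM in double mutant and 172.9 CPM in w1118 testes (-0.69 ± 0.11, adjusted p = 0.0115). Of 92 tested ribosomal protein genes, 72 fell in double mutant against Tailor mutant testes, beside 6.54% of all features, and 56 fell, beside 4.91%, with 1 higher, in double mutant against w1118 testes. The counts that fell ran by setting from 0 to 82 and from 0 to 78, with 0 under a 2-fold minimum and without double mutant replicate 2. Many of these genes are themselves snoRNA hosts, so the lists overlap.

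In the edgeR fit of all 8 libraries none of the 17 snoRNA-binding, assembly and nonsense-mediated decay genes listed passed, and DESeq2 called 0. Of their 119 unadjusted p in the edgeR fit, 23 were under 0.05. Of all 14246 features, 2099 (Tailor mutant against w1118) to 4726 (double mutant against Tailor mutant) were under 0.05 in a comparison. None of the 4 genes of the box C/D core particle was called in that fit; these are Fib, the methyltransferase, Nop56, nop5 and hoip, and the lowest p was that of hoip in double mutant against w1118 testes (-0.79 ± 0.30, adjusted p = 0.131). None of the 4 genes of the box H/ACA core was called, and CG7637, the Nop10 gene, came closest at 4.92 CPM in double mutant and 8.94 CPM in w1118 testes (-0.84 ± 0.24, adjusted p = 0.0603). Of the assembly and trafficking factors Nopp140, pont and rept, none was called, and rept had the lowest p (-0.44 ± 0.12 in Tailor mutant against w1118, adjusted p = 0.163). None of 6 nonsense-mediated decay genes was called, with the lowest p for Smg5 in the same comparison (-0.44 ± 0.12, adjusted p = 0.161). Other fits called some of these genes. In double mutant against w1118 testes hoip, nop5, Nop56, CG7637, Nop60B and Nopp140 were called lower in a fit of the 4 libraries of these groups alone and without either Tailor mutant library, with adjusted p down to 0.0165 for hoip, 0.0238 for nop5 and 0.0352 for CG7637. Smg5 was called lower in Tailor mutant against w1118 testes without Tailor mutant replicate 2 (-0.56, adjusted p = 0.0495).

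A called gene of intron processing was ldbr, the lariat debranching enzyme that opens excised introns. It gave 11.6 and 11.5 CPM in double mutant testes, 7.66 and 7.43 CPM in Tailor mutant testes, 7.66 and 7.66 CPM in Dis3L2 mutant testes, and 5.29 and 5.62 CPM in w1118 testes. It rose in double mutant against w1118 testes (1.08 ± 0.16, adjusted p = 0.00859), where 6.66% of all features rose, and in double mutant against Tailor mutant testes (0.61 ± 0.16, adjusted p = 0.0413). The first call was lost without w1118 replicate 1 (1.08, adjusted p = 0.0925) or replicate 2 (1.12, adjusted p = 0.0783) and without double mutant replicate 1 (1.08, adjusted p = 0.0539), and with a 2-fold minimum. The second was lost under most alternatives, with adjusted p up to 0.144 where 1 library was left out.

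The gene opposite Uhg8 moved in 4 comparisons. atk averaged 46.8 CPM in double mutant, 28.5 CPM in Tailor mutant and 67.1 CPM in Dis3L2 mutant testes, against 43.3 CPM in w1118 testes. It was called lower in Tailor mutant against Dis3L2 mutant testes (-1.23 ± 0.12, adjusted p = 0.00229), where the Uhg8 estimate was 0.18 ± 0.47. RpL23A, whose exons hold all of Uhg7's, gave 27.7 and 78.0 CPM in double mutant, 64.3 and 93.0 in Tailor mutant and 99.4 and 34.2 in Dis3L2 mutant testes, against 218.4 and 177.5 CPM in w1118 testes. Every mutant library lay below both w1118 libraries, a pattern not counted over all features. The estimate in double mutant against w1118 testes, -1.92 ± 0.60, did not pass (adjusted p = 0.0792 by edgeR's quasi-likelihood test).

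Over the 8 libraries the Uhg genes did not all vary together. Pearson correlations of log2 CPM between pairs of tested genes ran from 0.03 (Uhg4 and Uhg8) to 0.92 (Uhg3 and Uhg8). Among 9467 tested features averaging 5 CPM or more, Uhg genes and snoRNAs left out, the 4 most like the mean log2 CPM of the 6 tested Uhg genes were Lapsyn (r = 0.98), CG7778 (0.98), CG3349 (0.98) and CG14913 (0.98). These are the highest of many values over 8 libraries that share their groups and scaling, and they are given as a description.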

How the data were processed

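Total RNA from testes was made into libraries with a TruSeq total RNA kit (650 ng of input, 8 PCR cycles), per the labels' protocols. The submitters' processing notes name Trimmomatic 0.36, HISAT2 and the build dm6. The table that the authors deposited holds raw read counts per feature and library; which program, annotation and strand setting produced them is not stated in the labels or the file header. Genes that overlap, and snoRNA copies, are therefore uncertain. Symbols were looked up in the BDGP6 annotation from Ensembl (18953 by current symbol, 3809 by older symbol, 125 unmatched), which gave positions, hosted snoRNAs (same strand, inside the host) and exon lengths.

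In R 4.3.3, edgeR 4.0.16 was run on the counts with trimmed mean of M values scaling, filterByExpr with a minimum count of 10, and 1 quasi-likelihood fit of all 8 libraries by group. The fit was tested on simulated data. SE is the absolute log2 fold change over the square root of F. CPM used the scaled library sizes (scaling factors 0.795 to 1.16), and levels per kb used merged exons. Limits from 0 counts cover counting error only. The P-values of 2 libraries per group measure the spread between dissections, and reads carry no molecular identifiers.

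The members and the lists (snoRNA hosts, particle proteins, decay factors, markers) were chosen with earlier results of these data known. Named were the 7 Uhg genes, the mutated genes, for each member its most abundant and every called hosted snoRNA, called genes of the particle, debranching and decay lists or else the one with the lowest p, up to 3 other hosts of each kind and the 4 genes most correlated with the members. CG8078, atk and RpL23A, which overlap Uhg exons, fall outside this rule and were added after their values were seen. No sequence is printed, as none was used here. Alternatives were other scalings, DESeq2 1.42.0, other filters, a 2-fold minimum, a replicate block, fits of only the groups compared, small RNAs left out, and libraries left out.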

Additional observations from a re-analysis of the deposited data

Results flagged for a closer look

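The Dis3l2 gene (CG16940 in the table), read here as a check of the labels, was low to different extents in the 2 groups with a Dis3L2 mutation. It gave 30.7 CPM in double mutant and 91.7 CPM in Tailor mutant testes, while it gave 10.3 CPM in Dis3L2 mutant and 115.8 CPM in w1118 testes. The interaction, a test of the difference itself, was 1.91 on the log2 scale (adjusted p = 0.00254 by edgeR's quasi-likelihood test), so the row was less reduced where Tailor was also mutated. The cause was not tested. The alleles are not given, so the double mutant and Dis3L2 mutant groups may differ in Dis3L2 allele or parent strain. No Uhg gene had a called interaction.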

How the results depend on the processing

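The results rest on 2 libraries per group and on few counts, 51 to 338 per library for Uhg1 and 30 to 207 for Uhg4. Both Uhg calls held under relative log expression and upper-quartile scaling, DESeq2, no filter, a minimum count of 50 (which kept 4 Uhg genes) and small RNAs left out. With a 2-fold minimum, or fits of only the groups compared, the count of called Uhg genes was 0 in double mutant against Tailor mutant and 0 in Tailor mutant against Dis3L2 mutant testes. In Dis3L2 mutant against w1118 testes it was 1 with no filter and 1 with only the groups compared. Leaving libraries out gave 0 to 1 calls in Tailor mutant against w1118, 0 to 1 in Dis3L2 mutant against w1118, 0 to 2 in double mutant against Tailor mutant, 0 to 1 in double mutant against Dis3L2 mutant, and 0 to 1 in Tailor mutant against Dis3L2 mutant testes. Without Tailor mutant replicate 2, 9 of the 42 Uhg tests changed sign and 4, all of Uhg4, were newly called. Where a group kept 1 library, that library was assumed to vary like the others. Over all features, calls in double mutant against Tailor mutant testes ranged from 20 (only the groups compared) to 3769 (without Tailor mutant replicate 1), beside 2090, and in Tailor mutant against Dis3L2 mutant testes from 243 (2-fold minimum) to 2521 (without Tailor mutant replicate 2), beside 1845. The cause was not tested.

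Signs turned only for estimates that were not called. For Uhg2 in double mutant against Dis3L2 mutant testes (-0.01) the log2 fold change was 0.0272 with relative log expression scaling, 0.0151 with upper-quartile scaling, 0.0275 with DESeq2, 0.0238 with no filter, 0.0117 with small RNAs left out and 0.00124 with only the groups compared, and it ran from -0.23 to 0.30 with libraries left out. With libraries left out, Uhg2 ran from -0.66 to 0.27 in double mutant against Tailor mutant and from -0.26 to 0.66 in Tailor mutant against Dis3L2 mutant testes. Uhg3 ran from -0.60 to 0.55 in Tailor mutant against w1118, from -0.21 to 0.77 in Tailor mutant against Dis3L2 mutant, and from -1.35 to 0.0450 in the interaction. The Uhg4 interaction ran from -0.27 to 0.65. Uhg5 ran from -0.25 to 0.10 in double mutant against Tailor mutant and from -0.0260 to 0.44 in double mutant against Dis3L2 mutant testes. Uhg8 ran from -0.40 to 0.91 in Tailor mutant against w1118, from -0.34 to 0.35 in Dis3L2 mutant against w1118 and from -0.36 to 0.58 in Tailor mutant against Dis3L2 mutant testes. Of the 84 pairwise orders of levels per kb, 84 held with plain library totals and 82 with the longest transcript, where Uhg3 passed Uhg4 in Dis3L2 mutant and Uhg5 in w1118 testes.

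Whether same-numbered libraries share a batch was not settled. The deviations of same-numbered libraries correlated at -0.30 (Tailor mutant and Dis3L2 mutant) to 0.30 (Tailor mutant and w1118) between groups. With 2 libraries per group these correlations cannot decide it. With the replicate number as a block, 1 Uhg gene was called in double mutant against Tailor mutant and 1 in Tailor mutant against Dis3L2 mutant testes, as without it, and Uhg2 in double mutant against Dis3L2 mutant testes was at 0.0510. Over all features the block lowered the calls in double mutant against Tailor mutant testes to 1127.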
